A study of Mus musculus with 40 samples.

Results

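The conventional CD4+ T cells (Tconv) of 4 solid organs, kidney, liver, lung and pancreas, were compared with those of 3 lymphoid sources, blood, spleen and lymph node. These were 7 of the 10 Tconv libraries and of the 40 libraries of the series, defined by their tissue labels, with earlier results of these data known, with 1 library per source and the 3 gut Tconv libraries left out. The series sorted CD4+ T cells of perfused wild-type (WT) mice by a Foxp3Thy1.1 reporter, in which the surface protein Thy1.1 marks cells that express Foxp3. Reporter-positive cells are regulatory T cells (Treg) and reporter-negative cells Tconv, and each library was made from 2000 sorted cells. Every source has 1 Tconv and 3 Treg libraries. Perfusion and tissue digestion are given as the treatment of every library, lymphoid ones included, and neither age, sex, nor the animal behind a library is given. A single Tconv library stands for each source, so the sources were the replicates and the p-values below measure the spread between these samples. Where Treg libraries are fitted singly, the p-values measure the spread of libraries within a source. In bulk libraries, fewer cells of a type and less RNA per cell cannot be told apart.

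Tconv of blood and lymphoid organs are mostly naive or resting memory cells that recirculate through lymph, which needs CCR7 and the sphingosine receptor S1PR1. Effector memory and resident cells of organs replace these with receptors for inflamed tissue, and type 1 effectors among them express T-bet, interferon gamma, cytotoxic granule genes and receptors otherwise known from natural killer cells. The genes Cxcr6, Nkg7 and Il2rb, given as the markers of the comparison, belong to that programme. CXCR6 is the receptor for the membrane chemokine CXCL16, NKG7 is a granule membrane protein of cytotoxic lymphocytes, and IL2RB is the signalling chain that the receptors for IL-2 and IL-15 share.

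Promoter windows of 300 bases, from 250 before to 50 after the start, are shown for 2 of the markers and for Cxcr3, a chemokine receptor gene that T-bet is known to drive, since T-box and Runx factors are the textbook regulators of this programme. Capitals mark GTGTGA, the core of a T-box site, and TGTGGT, the core of a Runx site, on either strand. The windows are RefSeq sequences of build GRCm38.p6 at chr7:43436888-43437187 (plus strand), chr9:123806227-123806526 (plus strand) and chrX:101734098-101734397 (minus strand).
Nkg7: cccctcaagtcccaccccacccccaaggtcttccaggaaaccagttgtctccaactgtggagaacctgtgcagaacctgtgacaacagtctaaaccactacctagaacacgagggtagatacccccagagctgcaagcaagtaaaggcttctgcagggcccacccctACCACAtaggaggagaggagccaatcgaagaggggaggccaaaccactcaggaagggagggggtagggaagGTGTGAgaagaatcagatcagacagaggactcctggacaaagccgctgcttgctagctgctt
Cxcr6: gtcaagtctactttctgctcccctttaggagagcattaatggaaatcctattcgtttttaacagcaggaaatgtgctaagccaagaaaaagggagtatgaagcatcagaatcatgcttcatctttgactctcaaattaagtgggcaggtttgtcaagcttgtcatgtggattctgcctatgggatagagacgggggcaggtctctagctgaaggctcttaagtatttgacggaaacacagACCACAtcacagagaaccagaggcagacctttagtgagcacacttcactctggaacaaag
Cxcr3: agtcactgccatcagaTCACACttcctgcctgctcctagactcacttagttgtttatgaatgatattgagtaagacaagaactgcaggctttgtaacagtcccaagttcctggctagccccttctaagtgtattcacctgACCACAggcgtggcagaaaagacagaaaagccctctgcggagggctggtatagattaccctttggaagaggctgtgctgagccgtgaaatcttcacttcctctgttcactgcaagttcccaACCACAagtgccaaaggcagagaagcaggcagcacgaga

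The Nkg7 window held 1 match to each motif, the Cxcr6 window held 1 Runx match, and the Cxcr3 window held 1 T-box and 2 Runx matches, with no overlap between the motifs. Of all 32851 promoter windows in the table, 14.5% held GTGTGA and 16.8% held TGTGGT. Il2rb had no window in the table. Of the 13522 tested symbols, 9502 had a window, and 537 of these belonged to genes whose 4 solid organ values all lay above the 3 lymphoid values. In these 537 genes the shares were 13.97% and 18.1%, against 12.99% and 15.5% in all tested genes. In the 448 genes with a window whose organ values all lay below the lymphoid values, they were 12.1% and 18.1%. The Runx share was thus alike in both directions. TGANTCA, the AP-1 site in which N is any base, lay in 9.50% of the 537, in 6.25% of the 448 and in 5.85% of all tested genes with a window. These matches are descriptions of letters and were set against no binding data.

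The 7 libraries held 12745701 to 21521656 counts and 14411 to 17933 detected genes. Levels are CPM, read counts relative to the library total scaled by its TMM factor (the usual CPM). The sort was checked first. Cd4 stood at 584 to 1147 CPM and Cd3e at 734 to 1723 CPM, with overlapping groups. Foxp3 reached at most 6.87 CPM, in lung, against 101 to 248 CPM in the Treg of the same sources, and Cd8a at most 3.22 CPM. Lung and lymph node, 1 library of each group, stood apart from the other 5. Ribosomal protein genes took 3.99% and 5.21% of their counts, against 1.84% to 2.54% elsewhere, and their deviations from the mean of all libraries ran against gene length (Spearman correlation across genes of -0.22 and -0.26, against 0.10 to 0.16). Markers of other cell types took 0.130% to 0.140% of counts in lymphoid libraries and 0.163% to 1.25% in solid organs (exact two-sided permutation test over 35 splits, p = 0.171; the smallest p that 4 against 3 allows is 0.0286). In pancreas, 1.02% of counts (95% Wilson interval 1.01% to 1.02%, counting error only) came from 20 acinar and islet genes, led by the lipase gene Pnlip at 1563 CPM and the elastase gene Cela2a at 1545 CPM, which stayed at or below 12.003 CPM elsewhere.

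The 3 markers were higher in each solid organ than in any lymphoid library. Cxcr6 (ENSMUSG00000048521.8, mm10 chromosome 9, 123806475 to 123811760) stood at 1619 CPM in kidney, 1780.0 in liver, 965 in lung and 101 in pancreas, and at 20.8 in blood, 72.4 in spleen and 79.9 in lymph node. Nkg7 (ENSMUSG00000004612.9, chromosome 7, 43437073 to 43438249) had 813, 939.6, 537 and 57.2 CPM in the organs, in the same order, and 16.7, 46.8 and 27.4 CPM in the lymphoid libraries. Pancreas lay far nearer to the lymphoid libraries than the other 3 organs did in both genes. Il2rb (ENSMUSG00000068227.9, chromosome 15, 78479256 to 78495271) had 2055, 3115, 1128 and 414 CPM against 130.5, 232 and 166 CPM. The log2 fold changes, with their SE, were 4.28 ± 0.95 for Cxcr6, 4.28 ± 0.89 for Nkg7 and 3.25 ± 0.65 for Il2rb. In edgeR's quasi-likelihood test with Benjamini-Hochberg adjustment over 13524 genes, none of them passed the threshold of 0.05, with adjusted p-values of 0.280, 0.280 and 0.273.

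**Figure D1:**
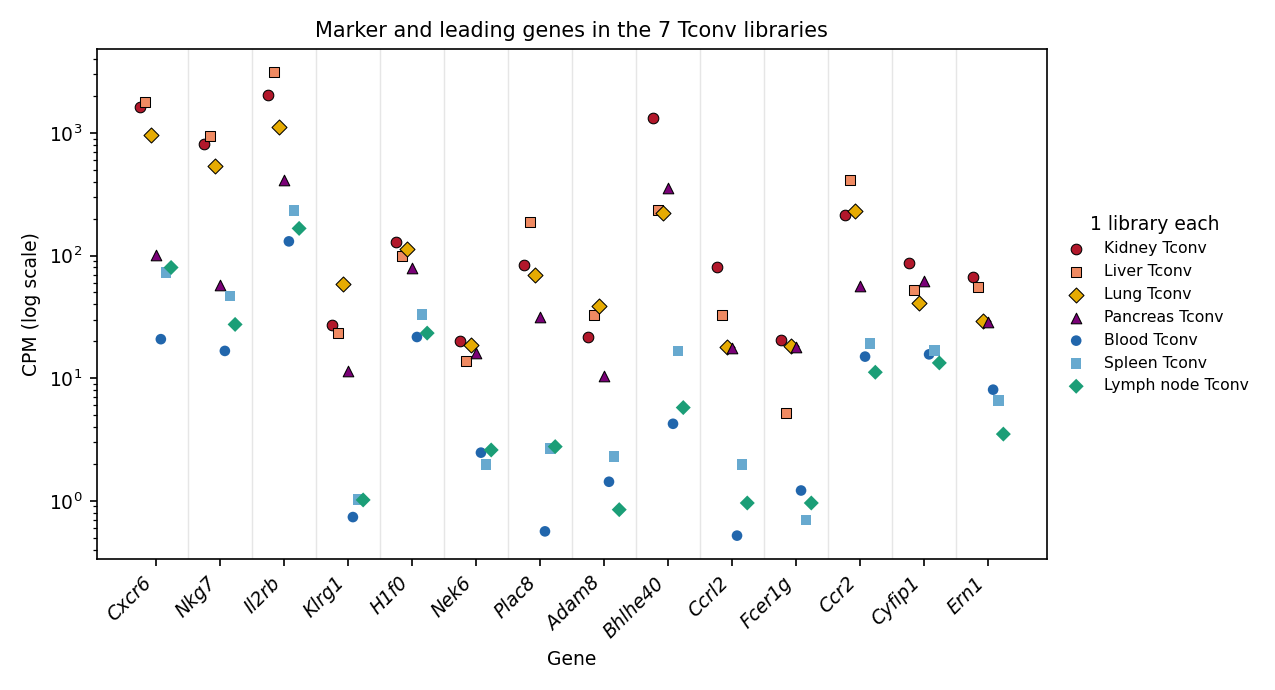
CPM on a log axis of the 3 marker genes and of 11 of the leading higher genes in each of the 7 Tconv libraries, 1 point per library, with solid organs outlined in black. In every gene shown the 4 solid organ points lie above the 3 lymphoid points, and pancreas is the lowest of the organs in 10 of the 14.

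No gene passed in the fit as a whole. Of 13524 genes tested, 0 had an adjusted p under 0.05 in edgeR and 1242 (9.18%) had an unadjusted p under 0.05, of which 870 were higher (6.43%) and 372 lower (2.75%) in the solid organs. DESeq2's Wald test called 464, with 428 higher (3.16%) and 36 lower (0.266%), and limma-voom with quality weights called 0. The 4 solid organ values and the 3 lymphoid values did not overlap in 739 genes that were higher (5.46%) and in 682 that were lower (5.04%), and of these, 351 and 127 differed at least 2-fold in every organ. With pancreas left out edgeR called 16 genes (0.123%), all higher, among them Cxcr6, Nkg7, Klrg1, Plac8, Ccr2, Adam8, Id2, Cd44, Metrnl and Ccl5. With pancreas left out, 8.63% of all genes were higher and 8.65% lower without overlap, and with lung and lymph node both left out, a choice made after seeing the data, 17.6% and 19.8%. The genes below are therefore described by their values in each library, and a percentage in brackets after a count is the same count over all genes tested.

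The 12 higher genes with the smallest p were led by Klrg1 (ENSMUSG00000030114.8, chromosome 6, 122270596 to 122282882), an inhibitory receptor of differentiated T cells and natural killer cells that binds cadherins. It stood at 27.2 CPM in kidney, 23.5 in liver, 58.7 in lung and 11.4 in pancreas, and at 0.736, 1.02 and 1.02 CPM in blood, spleen and lymph node. Its log2 fold change of 5.03 ± 0.65 had the lowest adjusted p of the comparison, 0.205. Plac8 (chromosome 5, 100553725 to 100572245), a cysteine-rich protein gene of activated lymphocytes, had 84.5, 188, 69.3 and 31.5 CPM in the organs against 0.563, 2.68 and 2.77 CPM, a log2 fold change of 5.55 ± 0.82. Bhlhe40 (chromosome 6, 108660629 to 108666925) encodes a transcription factor needed for cytokine production by helper cells and for resident memory. It had 1324 CPM in kidney, 237 in liver, 222 in lung and 356 in pancreas, and 4.25, 16.6 and 5.76 CPM in blood, spleen and lymph node. In each of these genes the lowest organ value was over 10-fold the highest lymphoid value, and pancreas was the lowest organ for Klrg1 and Plac8 but not for Bhlhe40.

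The other 9 had mixed roles, with a pair of chemokine receptor genes among them. Ccr2 (chromosome 9, 124101950 to 124113557), the receptor for monocyte-attracting chemokines, had 213, 410.5, 231 and 56.3 CPM against 15.0, 19.2 and 11.2 CPM, a log2 fold change of 3.91 ± 0.63. Ccrl2, an atypical chemokine receptor, had a log2 fold change of 5.02 ± 0.79 and Adam8, a membrane metalloprotease, of 4.08 ± 0.62. The 2 changes with the least spread among organs were those of H1f0 and Nek6, with log2 fold changes of 2.01 ± 0.29 and 2.87 ± 0.41. H1f0, a linker histone of differentiated cells, had 79.0 to 128 CPM against 21.7 to 33.2 CPM, and Nek6, a mitotic kinase gene, had 13.8 to 20.1 CPM against 1.98 to 2.60 CPM. With all 10 Tconv libraries in the fit, Nek6, H1f0, Klrg1 and the glycosyltransferase gene B3galt5 passed in edgeR, each with an adjusted p of 0.0490. Fcer1g, the signalling chain of Fc and natural killer receptors, Cyfip1, a regulator of actin, and Ern1, the stress sensor IRE1, completed the group with log2 fold changes of 4.01 ± 0.64, 1.99 ± 0.33 and 2.90 ± 0.48. Cdc42ep1 was counted in all 4 organs, at 2.48 to 14.1 CPM, and had 0 counts in the 3 lymphoid libraries, so that its mean was at least 180-fold higher than the floor of 3 counts over the group.

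Killer granule and chemokine genes were higher in the organs as a group. Of 16 tested, 10 did not overlap in the higher direction (5.46% of all genes), 13 had an unadjusted p under 0.05, and the median log2 fold change was 3.23, against -0.01 over all genes. Ccl5, the chemokine RANTES stored by memory T cells, had 362, 565, 331 and 34.3 CPM in the organs and 16.1 to 16.9 CPM in the lymphoid libraries, which differed from each other by less than 1 CPM. Fasl, the death ligand, had 379.9, 178, 36.5 and 99.7 CPM against 14.4 to 21.7 CPM. Ccl3, a chemokine of activated effectors, was at 46.8 CPM in kidney, 3.67 to 8.67 CPM in the other organs and at most 0.395 CPM in lymphoid libraries. Granzyme B was not part of the rule and was looked up for its role after values were known. Gzmb stood at 57.1, 179 and 16.0 CPM in kidney, liver and lung, but its 1.9999 CPM in pancreas lay within the lymphoid range of 0.790 to 3.48 CPM.

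Natural killer type receptors were also higher as a group, with medians highest in liver and kidney. Of 18 tested, 8 did not overlap and were higher (5.46%), 1 was lower (5.04%), and 13 had an unadjusted p under 0.05, all higher, with a median log2 fold change of 4.45. Without pancreas 14 of the 18 were higher without overlap (8.63%). Klrk1, which encodes the activating receptor NKG2D, had 129 CPM in kidney, 99.4 in liver, 12.7 in lung and 3.67 in pancreas, against 1.19 to 3.16 CPM. Klre1 had 14.7, 43.1, 18.0 and 0.286 CPM, and its highest lymphoid value was 0.217 CPM in blood. In both genes kidney, liver and lung lay well above the lymphoid libraries and pancreas barely above them. Fcer1g and Tyrobp, adaptor chains that also serve myeloid cells, were as high in pancreas (17.9 and 29.2 CPM) as in lung (18.2 and 28.04 CPM). Members of the Klra and Klrc families are close copies of each other, and how reads were shared between them is not given in the sources used here.

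Markers of CD8, gamma delta and innate-like T cells moved with these receptors in part. Of 8 tested, 3 were higher without overlap (5.46%) and 0 lower (5.04%). In kidney 5 were at least 2-fold higher (16.8%) and 2 lower (12.7%), and in liver 5 (12.4%) and 2 (14.1%). The summed share of counts of the list was 0.0577% in liver, 0.0226% in kidney, 0.0145% in lung and 0.00908% in pancreas. In lymphoid libraries it was 0.00375% to 0.00838% (exact two-sided permutation test, p = 0.114). Tcrg-C2 and Tcrg-C4, constant segments of the T cell receptor gamma chain, had 211 and 111 CPM in liver and 70.3 and 58.2 CPM in kidney, and at most 4.29 and 1.18 CPM in lymphoid libraries. Zbtb16, the factor PLZF of natural killer T cells, had 111 CPM in liver, 68.1 in kidney, 5.21 in lung, 3.29 in pancreas and 0.390 to 4.77 CPM in lymphoid libraries. Of the 12 markers listed, 8 to 11 were detected in each library, and 2 were looked up afterwards. The natural killer T cell segment Trav11 was at 0 in all 7. The libraries come from a 3′ kit, which reads the transcript end, so this 0 cannot tell whether such cells were present. The delta chain Trdc did not follow, with 0.547 to 22.1 CPM in organs and 5.04 to 19.0 CPM in lymphoid libraries. The part of such cells in the killer and receptor results was not tested.

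The type 1 helper programme was higher in each organ, most in kidney and liver. Of 19 genes tested, 11 did not overlap and were higher (5.46%), none was lower, and 13 had an unadjusted p under 0.05, with a median log2 fold change of 2.87. The lists share members: Bhlhe40 and Cxcr6 are also on the residency list, and Cxcr6 and Cxcr3 on the homing list. Il2rb is also on the cytokine receptor list and Ifng on the effector list, so counts of these lists are not separate results. Cxcr3, which guides type 1 cells to inflamed tissue, had 497, 477, 348 and 96.7 CPM in kidney, liver, lung and pancreas against 37.99, 78.0 and 29.7 CPM in blood, spleen and lymph node. Id2, an inhibitor of E proteins that effector cells need, had 1032, 1978, 1289 and 237 CPM against 167 to 173 CPM. Ifng was highest in kidney at 419 CPM, with 60.9, 15.7 and 29.9 CPM in the other organs and at most 3.54 CPM in lymphoid libraries. Tbx21, which encodes T-bet and was added for its role after values were known, had 832, 469, 142 and 46.1 CPM against 12.04, 40.2 and 11.3 CPM. Each of these genes separated the groups, with pancreas lowest in all but Ifng. Runx3 and Eomes overlapped between the groups, also looked up afterwards.

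Genes of other helper lineages were higher in part. Of 19 tested, 7 did not overlap and were higher (5.46%) and 11 had an unadjusted p under 0.05. Rora, which encodes a nuclear receptor of type 2 and type 17 cells, had 556, 152, 187 and 52.9 CPM against 16.4 to 35.8 CPM, and Gata3, the type 2 regulator, had 181 to 418 CPM against 115 to 121 CPM. Il1rl1, the receptor for the alarmin IL-33, was highest in lung at 77.4 CPM, with 40.4 in kidney, 33.0 in pancreas and 11.5 in liver, against 0.395 to 5.50 CPM. Here lung and not liver was high. The type 2 cytokine gene Il5 was counted in kidney (6.998 CPM), lung (4.51) and pancreas (2.14) but not in liver nor in any lymphoid library, and Il17f was at 0.0781 to 2.62 CPM in the organs and at 0 counts in all lymphoid libraries. The liver value of Il17f rests on 1 count. The organ means of Il5 and Il17f were at least 67.6-fold and 25.9-fold over the floor.

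The residency list held the largest share of small p-values. Of 26 genes, 25 had an unadjusted p under 0.05, all higher (6.43% of all genes), 10 did not overlap (5.46%), and the median log2 fold change was 3.80. Without pancreas 17 of 26 did not overlap (8.63%), and without lung and lymph node 15 of 26 did not (17.6%). Cd44, the hyaluronan receptor of antigen-experienced cells, had 478, 343, 459 and 165 CPM against 65.6 to 92.1 CPM, a log2 fold change of 2.18 ± 0.39. Ccr8, a receptor of skin and barrier homing cells, was high in kidney (238 CPM), pancreas (129) and lung (78.1), but in liver, at 13.3 CPM, it was just over the highest lymphoid value of 12.2 CPM. Cdh1, E-cadherin, was even across the organs at 5.96 to 8.99 CPM and at most 0.563 CPM in lymphoid libraries. The list includes immediate early genes, which were high in kidney and pancreas. Itga1 and Zfp683, the collagen-binding integrin chain and the factor HOBIT, were looked up afterwards: both were high in kidney, liver and lung (14.2 to 156 CPM) but at 0.857 and 0.143 CPM in pancreas, within the lymphoid range of Itga1 and below that of Zfp683.

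Homing receptors and integrin chains showed 9 of 25 genes higher without overlap (5.46%) and 17 with an unadjusted p under 0.05, none lower in either count, and without pancreas 15 were higher without overlap (8.63%). Besides Cxcr6, Cxcr3, Ccr2, Ccr8 and Ccrl2, the list held Ccr9, the receptor for the gut chemokine CCL25, at 53.0, 109.8, 33.7 and 34.7 CPM against 10.5, 15.4 and 9.09 CPM. S100, annexin, galectin and cytoskeletal genes, which mark migrating memory cells, were higher without overlap in 10 of 20 (5.46%), with a median log2 fold change of 1.79. Anxa1 had 181, 35.6, 43.0 and 20.95 CPM against 1.58 to 6.43 CPM, Lgals1 had 122 to 591 CPM against 76.6 to 101 CPM, and Lmna, nuclear lamin A, had 9.84 to 201 CPM against 4.25 to 5.04 CPM. Ly6c2 had 46.8 to 391 CPM against 4.59 to 17.0 CPM, while its close copy Ly6c1 had 38.7 to 94.0 CPM against 62.2 to 167 CPM, and the sharing of reads between the pair is uncertain.

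Cytokine receptor chains were mixed, with 8 of 26 higher without overlap (5.46%) and a median log2 fold change of 0.60. Il18rap, a chain of the IL-18 receptor, had 137, 102, 103 and 14.3 CPM against 0.564 to 11.4 CPM, and Ifngr1 had 255 to 2013 CPM against 170.2 to 252 CPM. Of checkpoint and costimulatory receptors, 7 of 20 were higher (5.46%) and 2 lower (5.04%) without overlap. Ctla4 had 243, 32.4, 35.3 and 181 CPM against 8.86 to 21.6 CPM, Icos 175 to 854 CPM against 83.2 to 93.2 CPM, and the ectonucleotidase gene Entpd1, CD39, 98.4, 98.0, 11.98 and 10.05 CPM against 2.04 to 5.09 CPM. Btla, an inhibitory receptor of resting cells, was lower in every organ, at 69.5 to 94.1 CPM against 119 to 140.0 CPM. Of secreted and surface helper effectors, 7 of 22 were higher without overlap (5.46%) and 13 had an unadjusted p under 0.05, while 11 were higher without overlap when lung and lymph node were left out (17.6%). Csf2, the growth factor GM-CSF, had 15.9, 10.7, 1.18 and 11.2 CPM against at most 0.268 CPM, and Metrnl, a secreted factor of activated cells, had 114, 29.7, 44.9 and 4.90 CPM against 1.47 to 2.20 CPM.

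Cell cycle genes were higher without overlap in 4 of 20 (5.46%) and had an unadjusted p under 0.05 in 7, while 10 were higher without overlap when pancreas was left out (8.63%) and 11 when lung and lymph node were (17.6%). Rrm2, a subunit of ribonucleotide reductase, had 75.2, 68.3, 55.9 and 25.6 CPM against 7.62 to 13.7 CPM. Interferon-stimulated genes (1 of 22 without overlap, median log2 fold change 0.00) and T cell identity genes (1 of 16 higher and 1 lower, median 0.02) stood near the background of all genes, although 7 of the 16 T cell identity genes were higher without overlap when lung and lymph node were left out (17.6%). Zap70, a kinase of T cell receptor signalling, had 236 to 359 CPM against 215 to 231 CPM, and the adaptor gene Lat had 382 to 553 CPM against 586 to 682 CPM.

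**Figure D2:**
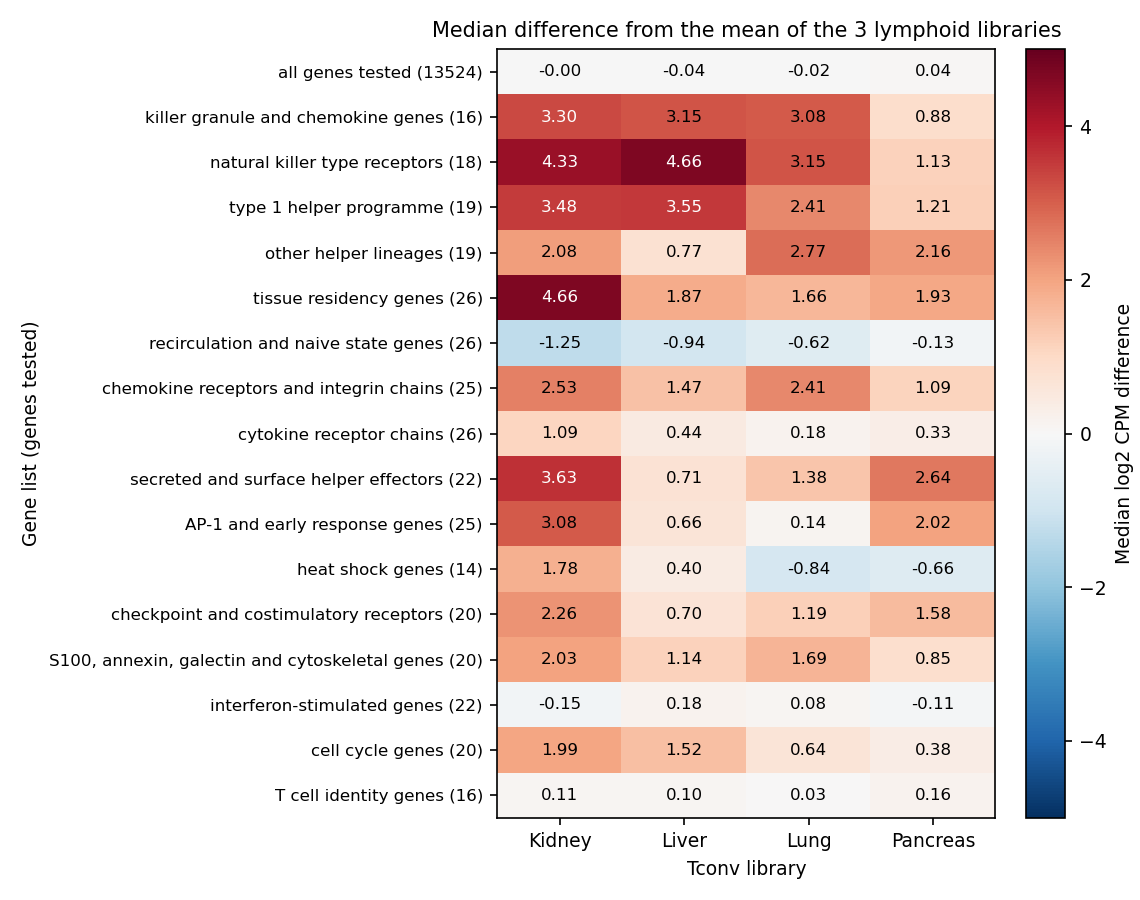
Median log2 CPM difference of each gene list in each solid organ Tconv library from the mean of the 3 lymphoid libraries, with the number of genes tested in brackets and the value in each cell. Killer, receptor and type 1 lists have medians of 2.41 or more in kidney, liver and lung and of 0.88 to 1.21 in pancreas, while the recirculation list is at -1.25 in kidney and -0.13 in pancreas.

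Apart from Myh7b and Comp, given below, the 12 lower genes with the smallest p had smaller absolute log2 fold changes than the 12 higher ones. Recirculation and naive state genes had a negative log2 fold change in all 26, but 3 did not overlap (5.04% of all genes) and 3 had an unadjusted p under 0.05, with a median of -0.60. Without pancreas 11 were lower without overlap (8.65%), and without lung and lymph node 9 were (19.8%). Dapl1, a gene of naive T cells, had 10.01, 39.2, 34.0 and 52.0 CPM in kidney, liver, lung and pancreas against 92.2 to 104 CPM in blood, spleen and lymph node, a log2 fold change of -1.53 ± 0.46. Cd55, a complement regulator, had 17.1 to 36.0 CPM against 43.2 to 65.6 CPM. Lef1, a factor of naive cells, overlapped through the 869.9 CPM of pancreas, with 230.2, 464 and 437 CPM in the other organs and 838 to 1109 CPM in lymphoid libraries. The exit receptor S1pr1, the lymph node receptor Ccr7 and their regulator Klf2 were looked up afterwards and overlapped. S1pr1 and Ccr7 had their highest values of the 7 libraries in pancreas, at 1879 and 3180.0 CPM.

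The 12 lower genes with the smallest p belonged to no one list. Slc35b3, a transporter of the sulfate donor into the Golgi, had 41.7, 54.1, 63.6 and 45.4 CPM against 122, 105 and 113 CPM, a log2 fold change of -1.15 ± 0.23 with an adjusted p of 0.279 in edgeR. Tia1, an RNA-binding protein gene, had 34.8 to 60.6 CPM against 82.7 to 110.1 CPM, and Dcaf6, an adaptor gene of a ubiquitin ligase, 6.41 to 7.87 CPM against 17.3 to 24.4 CPM. Dph2, Mllt11, Timm21 and Lman2l and the non-coding Snhg20 and Mir142hg had log2 fold changes between -1.90 and -1.01. Myh7b and Comp had 0 counts in all 4 organs and 1.07 to 2.82 and 0.866 to 1.41 CPM in lymphoid libraries, which put their organ means at least 40.6-fold and 26.8-fold lower.

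The organs differed among themselves. Genes at least 2-fold from the mean of the lymphoid libraries and outside their range numbered 2274 higher (16.8%) and 1717 lower (12.7%) in kidney, 1677 (12.4%) and 1902 (14.1%) in liver, 1957 (14.5%) and 2779 (20.5%) in lung, and 1438 (10.6%) and 984 (7.28%) in pancreas. These counts have no test, since each organ has 1 library. Of the 739 genes higher without overlap, pancreas was the organ nearest to the lymphoid libraries in 330 (44.7%) and kidney the farthest in 339 (45.9%). Over the 500 most variable genes of the 10 Tconv libraries, the mean Euclidean distance in log2 CPM of pancreas was 46.2 to the lymphoid libraries and 48.9 to the other organs, while kidney was at 73.7 and 51.7. The nearest library was Peyer's patch Tconv for pancreas (36.0) and liver (44.0), gut lamina propria Tconv for kidney (35.4), and liver for lung (50.9).

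**Figure D3:**
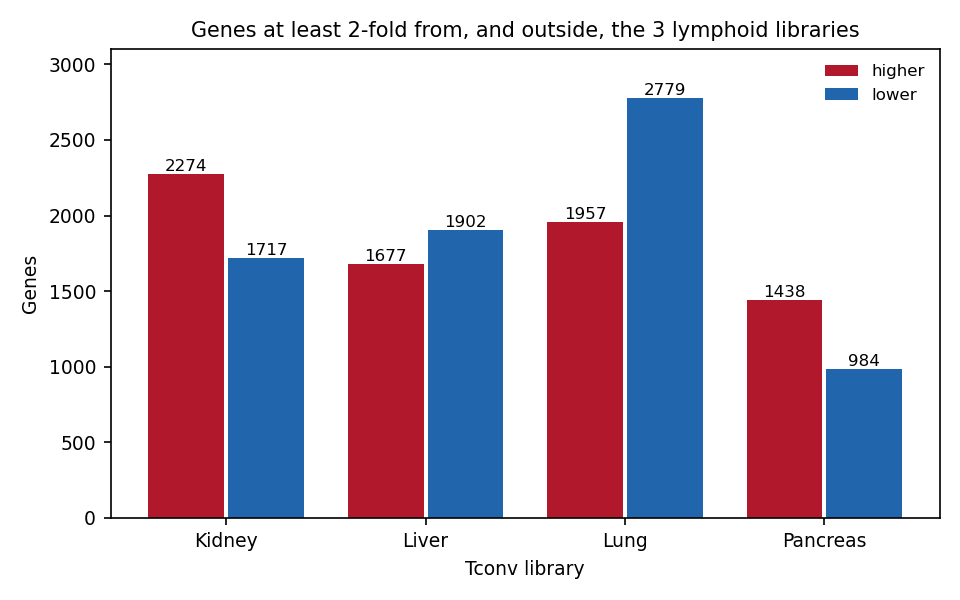
Number of genes at least 2-fold higher or lower than the mean of the 3 lymphoid Tconv libraries and outside their range, for each solid organ Tconv library. Lung has the most lower genes, 2779, and pancreas the fewest in both directions, 1438 and 984.

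Kidney and pancreas shared high early response genes. On the AP-1 and early response list, 23 of 25 genes were at least 2-fold higher in kidney (16.8%), 17 in pancreas (10.6%), 9 in liver (12.4%) and 3 in lung (14.5%), so that the lung count was near its background. On that list 5 did not overlap over the 4 organs (5.46%), or 14 when lung and lymph node were left out (17.6%). Junb had 6102 CPM in kidney and 3884 in pancreas, against 334 in liver, 355 in lung and 173 to 230.3 CPM in lymphoid libraries. Dusp1, a phosphatase of MAP kinases, had 2889 and 891 CPM in kidney and pancreas, against 107 and 38.5 CPM in liver and lung and 27.8 to 46.2 CPM in lymphoid libraries. Heat shock genes were at least 2-fold higher in 12 of 14 in kidney (16.8%) and in none in the other organs. Of the 14, 4 were at least 2-fold lower in pancreas (7.28%), 3 in lung (20.5%) and 0 in liver (14.1%). Hspa1a had 3094 CPM in kidney and at most 7.88 CPM in the other 6 libraries, and its near copy Hspa1b had 7424 CPM and at most 45.1 CPM. Myeloid markers were also highest in kidney, at 0.0525% of counts, with 0.00881% to 0.0383% in the other organs and 0.00107% to 0.00395% in lymphoid libraries (exact two-sided permutation test, p = 0.0571). Among these, Csf1r had 65.9 CPM in kidney and Lyz2 315 CPM in lung. Markers of B and plasma cells, a separate list that holds the class II genes, took 0.268% of counts in kidney, 0.154% in pancreas, 0.0827% in lung and 0.0476% in liver, against 0.0780% to 0.0859% in lymphoid libraries (exact two-sided permutation test, p = 0.371). Of the 18 genes tested on this list, 7 had a positive log2 fold change, and the median was -0.76. Without overlap, 0 were higher (5.46%) and 3 lower (5.04%). The class II gene H2-Ab1, 1 of the 7, had 564 CPM in kidney, 224 in pancreas, 142 in lung and 11.1 in liver. Looked up afterwards among the myeloid list, the neutrophil genes S100a9 and Ly6g and the Kupffer cell gene Clec4f were at 0 in all 7 libraries. The part of these cells in the early response and residency results was not tested.

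**Figure D4:**
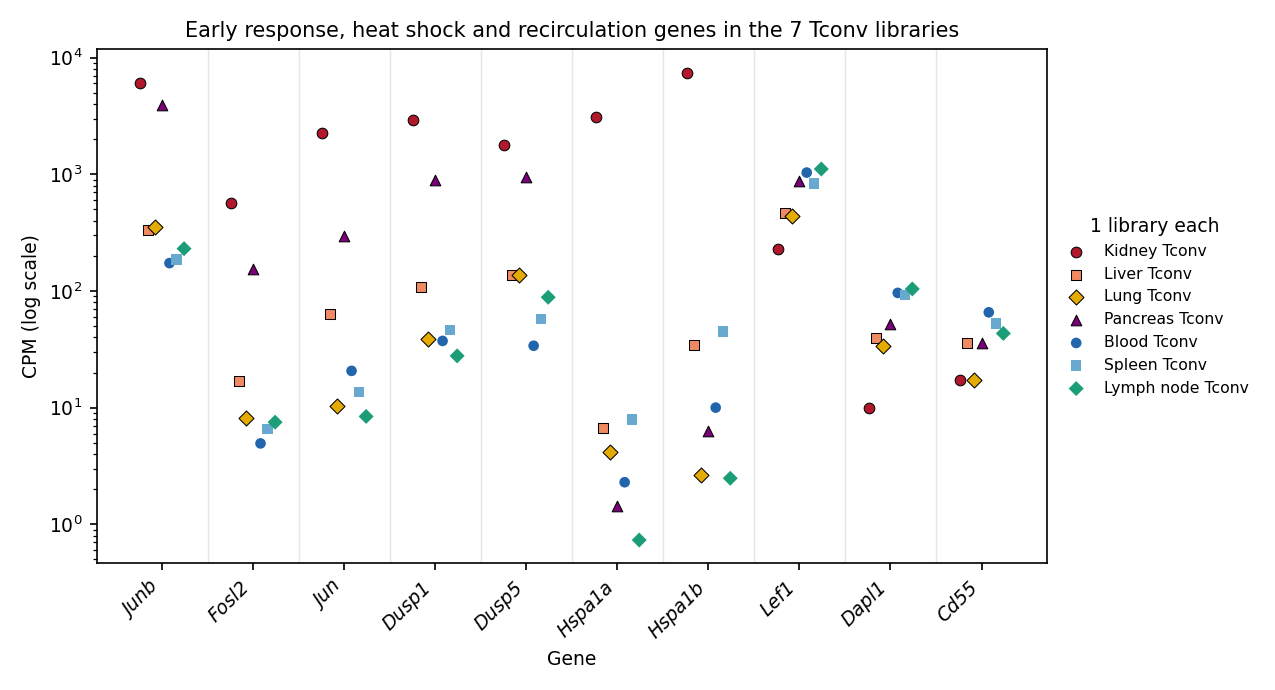
CPM on a log axis of early response, heat shock and recirculation genes in each of the 7 Tconv libraries, 1 point per library, with solid organs outlined in black. Kidney and pancreas lie highest for Junb, Fosl2, Jun, Dusp1 and Dusp5, kidney alone for Hspa1a and Hspa1b, and kidney lowest for Lef1, Dapl1 and Cd55.

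Treg libraries of the same 7 sources, which took no part in the comparison above, gave a second reading of the organ difference. With the 21 Treg libraries fitted with a mean per source, edgeR called 1038 of 16725 genes higher (6.21%) and 531 lower (3.17%) in the 4 organs. With counts summed per source, so that sources are replicates as in Tconv, edgeR called 0 of 16845, with 1847 at an unadjusted p under 0.05, while DESeq2 called 690. Of the 739 genes higher without overlap in Tconv, 732 were tested in the 21 libraries and 276 were called higher in Treg (37.7%) and 6 lower, against 6.78% and 3.57% of all 13401 Tconv genes tested there. The 276 were 30.4% of the Treg calls in that direction. Of the 682 lower genes, 81 of 674 were called lower in Treg (12.02%) and 2 higher. Whether Treg and Tconv libraries came from the same animals is not given in the labels, and RNA of other cells was present in both, with Pnlip at 10829.5 CPM in pancreas Treg. Its part in the overlap was not tested. The Treg fold change was positive in 87.2% of the 732 and in 12.8% of the 674, against 47.6% of all genes.

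Residency genes were called higher in Treg in 22 of 26, early response genes in 18 of 25, S100 and annexin genes in 15 of 20, type 1 genes in 12 of 19 and killer genes in 8 of 16 (6.78% of all genes). Cxcr6 had 432, 111, 278 and 175 CPM in Treg of kidney, liver, lung and pancreas against 12.8, 26.5 and 48.1 CPM, a log2 fold change of 3.09 ± 0.37 (edgeR adjusted p = 5.78e-05). Its Treg level in pancreas was no nearer to the lymphoid values than that in liver. Nkg7 was called with 1.26 ± 0.29 (adjusted p = 0.00996). These counts and p-values come from the 21-library fit, whose spread lies within sources. With counts summed per source, edgeR gave Cxcr6 3.09 ± 0.59 (adjusted p = 0.264) and Nkg7 1.01 ± 0.58 (adjusted p = 0.572). The organ and lymphoid Treg values of Nkg7 overlapped. Tcrg-C2 and Tcrg-C4 had negative log2 fold changes in Treg in the 21-library fit, -1.53 ± 0.54 and -3.84 ± 0.52. The second passed in edgeR (adjusted p = 0.000275). With counts summed per source, edgeR gave -0.62 ± 1.01 (adjusted p = 0.874) and -1.69 ± 1.35 (adjusted p = 0.708). The organ and lymphoid Treg values of both genes overlapped. All were low, the highest being 4.402 CPM for Tcrg-C4 in blood Treg.

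The IL-2 receptor chains Il2rb and Il2ra differed between organs and lymphoid sources in another way in Tconv than in Treg. Il2rb stood at 1477 to 2421 CPM in Treg of every source. Its log2 fold change in Treg was 0.14 ± 0.11 in the 21-library fit (edgeR adjusted p = 0.477). Il2ra, the high-affinity chain CD25 (chromosome 2, 11642807 to 11693193), had 38.7, 93.3, 37.2 and 34.7 CPM in Tconv of kidney, liver, lung and pancreas against 1.73, 6.06 and 6.83 CPM, and in Treg 387, 493, 301 and 399.5 CPM against 647, 509.7 and 511 CPM. In Tconv all organs lay above the lymphoid libraries, and in Treg all lay below them. Socs2 and Cish, feedback inhibitors of cytokine receptors that STAT5 is known to induce, were named after the fit and followed Il2rb. Socs2 had 90.4, 59.3, 56.1 and 6.24 CPM in organ Tconv against 0.508 to 1.72 CPM, and 34.5 to 50.2 CPM against 23.9 to 45.7 CPM in Treg. Cish had 52.9 to 253 CPM in organ Tconv against 8.01 to 24.1 CPM.

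The difference of the organ effect between the cell types was tested with the source as a block over the 14 Tconv libraries and Treg sums. No gene of 16998 passed in edgeR, with 825 (4.85%) at an unadjusted p under 0.05, and DESeq2 called 98. Il2ra had the lowest adjusted p of the named genes, 0.302, with a difference of 3.92 ± 0.53 on the log2 scale, and Il2rb had 2.87 ± 0.65 (adjusted p = 0.631). With 28 single libraries and a mean per source and cell type, in which the spread comes from Treg replicates alone, edgeR called 83 of 21714, 67 toward Tconv (0.309%) and 16 toward Treg (0.0737%). Il2ra (3.92 ± 0.28, adjusted p = 1.39e-07), Socs2 (5.09 ± 0.41, 5.12e-07), Il2rb (2.77 ± 0.24, 1.14e-06) and Tcrg-C4 (10.89 ± 0.97, 5.98e-06) led them. Entpd1 (2.98 ± 0.30), Mdfic, also named after the fit, a gene with a MyoD family inhibitor domain (3.35 ± 0.35), and Cish (2.61 ± 0.29) were next.

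**Figure D5:**
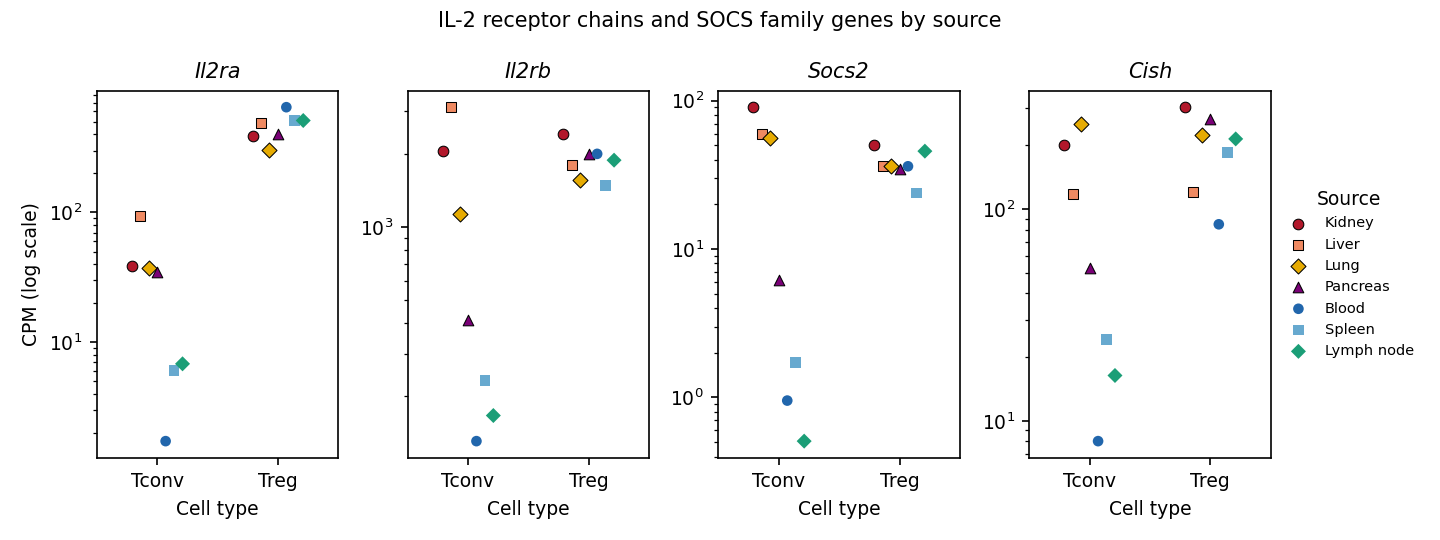
CPM on a log axis of Il2ra, Il2rb, Socs2 and Cish in Tconv (1 library per source) and Treg (3 libraries summed per source) of the 7 sources, with solid organs outlined in black. In Tconv the solid organ points lie above the lymphoid points in all 4 genes, and in Treg the 2 groups overlap in Il2rb, Socs2 and Cish while the lymphoid points are the higher ones in Il2ra.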

How the data were processed

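Gene counts were deposited by the authors as 1 table of 55421 genes and 40 libraries of whole-number counts, not normalized, with Ensembl identifiers. Symbols were taken from the reference annotation tables for 55154 of them, and 267 had none. RNA of sorted cells was extracted with RNeasy and made into libraries with the Lexogen QuantSeq 3′ kit, per the labels' protocols. FastQC, MultiQC, Trim Galore, STAR, featureCounts, DESeq and DESeq2 and the build mm10 are named, per the submitters' processing notes, with no role or order. The counting strand and the annotation release are not given in the sources used here, so reads of overlapping antisense genes cannot be told apart. A 3′ kit yields about one tag per transcript, so counts were not divided by length and levels were not compared between genes.

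Genes were kept by filterByExpr, libraries scaled by TMM, and the 4 and 3 Tconv libraries compared with edgeR 4.0.16 (quasi-likelihood F test, trended dispersion, robust; R 4.3.3), with Benjamini-Hochberg adjustment and a threshold of 0.05. DESeq2 1.42.0 and limma 3.58.1 (voom) were alternatives. Exact permutation tests went through all 35 splits, and scipy 1.17.1 gave the Wilson intervals. The 3 Treg libraries of each source were summed for the like test in Treg and for the difference between cell types, with a source block. An organ was called past the fold at 2-fold outside the lymphoid range, and Wilson intervals at 95% cover counting error only. The test scripts were checked on simulated data. Chi-square tests of counts gave no pair of the 7 libraries that agreed within sampling noise.

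The genes named by rule were the markers, the 12 with the smallest p in each direction at an absolute log2 fold change of 1 or more, since none was called, leaving out predicted genes, receptor segments and markers of other cells. To these came up to 6 of each programme list by smallest p, up to 4 of each list of other cells by mean CPM, up to 5 per organ that differed most from all other libraries, and the genes that check the labels. Some genes that the rule selects are not reported here. Others are said to have been looked up afterwards. The libraries and the gene lists were chosen with earlier results of these data known. The alternatives tried were other size factors, no or stricter filters on low counts, other tests, all 10 Tconv libraries, other-cell markers removed, each library left out, and lung and lymph node both left out. Replicate numbers were not used as pairs, as the closing section reports, and whether equal numbers mark the same animal is not given.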

Additional observations from a re-analysis of the deposited data

Results flagged for a closer look

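The rule selected 161 genes, of which 30 had 1 solid organ Tconv library far from the other 3, by the gap to the nearest of them over the range of the 4, past Dixon's 95% critical value. The 15 given here are those among the 84 of these genes that the report describes. Chance alone gives about 1 in 20 such groups where genes are not picked by their values. The rule picked some genes because 1 organ differed most from all other libraries. The 30 of 161 can therefore not be set against that rate. Kidney was the library apart in 9 of the 15, and liver, lung and pancreas in 2 each.

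In kidney, the heat shock genes Hspa1a and Hspa1b stood at 3094 and 7424 CPM, with 1.43 to 6.72 and 2.63 to 34.1 CPM in the other organs. Jun, a subunit of AP-1, had 2256 CPM (others 10.4 to 295) and Bhlhe40 had 1324 CPM (others 222 to 356). The effector genes Ifng, with 419 CPM, and Ccl3, with 46.8 CPM, were as far from the other organs, and Icos had 854 CPM and Anxa1 181 CPM. Csf1r, the receptor of macrophage growth factor, had 65.9 CPM in kidney (others 0.859 to 7.33). Whether these share a source was not tested.

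In pancreas, the digestive enzyme genes Pnlip (1563 CPM) and Cela2a (1545 CPM) stood apart. In liver, Il2ra was high at 93.3 CPM (others 34.7 to 38.7) and Lat low at 382 CPM (others 525 to 553). In lung, Btla was high at 94.1 CPM (others 69.5 to 72.0), and Foxp3 was high at 6.87 CPM (others 0.391 to 1.33), far under every Treg sum.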

How the results depend on the processing

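The 4 against 3 Tconv comparison called 0 genes in edgeR, and 22 with no filter on low counts, 464 in DESeq2 and 4 with all 10 Tconv libraries, while DESeq2's size factors, the stricter filter, voom, and the removal of other-cell markers or of lung with lymph node, the last chosen after seeing the data, called 0. Leaving out 1 library gave 0 to 16 calls, all 16 without pancreas. The Treg comparison, 0 with summed counts, gave 5 without the filter, 690 in DESeq2, 1569 with the 21 libraries fitted singly, and 0 to 79 with 1 source left out, 79 of them without liver. The difference between the cell types, 0 with a source block, gave 2 without the filter, 98 in DESeq2, 83 with 28 single libraries, and 0 to 4 with 1 source left out. At 4-fold in place of 2-fold, the genes past the fold numbered 1904 in kidney, 1911 in liver, 2429 in lung and 1053 in pancreas. The causes were not tested.

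With a replicate block the 21 Treg libraries gave 176 calls. Same-numbered Treg libraries did not deviate together (22 pairs, median r = -0.004, against 0.001 over 167 other pairs, 2 of the 22 above 0.1), so the numbers were not used as pairs. That check held no Tconv library and cannot exclude that equal numbers mark the same animal. No paired analysis was possible for Tconv because the 4 organs and the 3 lymphoid sources shared only the number 5, and the block with 28 libraries could not be fitted. Among values of single genes, 2200 kept their direction and side of the threshold, 110 passed the threshold where the reported value did not, and 34, in 17 genes, changed sign with no call on either side. Of the genes described, Foxp3, Cd4, Cd3e and Hspa1b were among these, Hspa1b at -0.42 to 8.21 on the log2 scale. With 1 library per source, a difference between organs cannot be told apart from a difference between libraries.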

Other observations

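The 3 gut Tconv libraries, which took no part in the comparison, held the 3 marker genes above the 3 lymphoid and below the kidney and liver libraries, scaled over all 10 Tconv libraries. Cxcr6 stood at 699 CPM in intraepithelial, 956 CPM in lamina propria and 89.2 CPM in Peyer's patch Tconv. Nkg7 had 711, 442 and 69.1 CPM and Il2rb 815, 1155 and 430 CPM in the same order, so that Peyer's patch was the lowest in each gene, as pancreas was among the organs. Cd8a was at 172 CPM in intraepithelial and 47.3 CPM in lamina propria Tconv.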
